A study of Mus musculus with 17 samples.

Results

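The genes described here are 6 markers of liver cancer: Afp, Gpc3, Igf2bp3, Fabp5, Golm1 and Glipr2. They were chosen by name, as every row of the deposited count tables that carries 1 of these gene symbols, out of 24352 genes listed in either table. The choice was made with earlier results of these data known, and the study had named Afp and Fabp5 as raised in these tumors. All 6 were listed in the Western diet table, and 5 in the high-fat diet table, which had no row for Igf2bp3. RNA-seq was performed on bulk tissue of male C57BL6 mice after 16 weeks of diet. Under a high-fat diet (HFD) there were 4 WT livers and 4 livers of liver-specific NgBR (Nus1) knockout mice (N-LKO). Under a Western diet (WD), which is rich in fat and cholesterol, there were 3 WT livers, 3 N-LKO livers and 3 tumors taken from N-LKO mice. NgBR is a subunit of the enzyme that makes the lipid carrier for protein glycosylation. Floxed NgBR alleles were deleted with Cre under the albumin promoter, which acts in hepatocytes, so other cells of a knockout liver keep the gene. Tumors and knockout livers thus share a genotype and a diet. Whether a tumor and a knockout liver came from 1 animal is not given in the sources used here. For each gene the question was whether its level rose in steps from WT liver to N-LKO liver to tumor, or in the tumor alone.

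Afp, Gpc3 and Igf2bp3 are active in the fetal liver, are silenced after birth and can return in liver cancer. Afp encodes alpha-fetoprotein, the fetal counterpart of albumin and the classical blood marker of hepatocellular carcinoma. Gpc3 encodes glypican 3, a heparan sulfate proteoglycan of the cell surface, and Igf2bp3 an oncofetal RNA-binding protein that binds the Igf2 mRNA among others. Fabp5 encodes a fatty acid chaperone, Golm1 a membrane protein of the Golgi that is shed into blood in liver disease, and Glipr2 a Golgi-associated protein of the same superfamily as Glipr1.

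The Afp and Igf2bp3 promoters are shown because these genes had the largest fold changes among the 5 that rose. Each is the 250 bases before the RefSeq start, from the GRCm38.p6 assembly, written 5′ to 3′ on the strand of the gene, chr5:90490464-90490713 (+ strand) for Afp and chr6:49214955-49215204 (− strand) for Igf2bp3. Capitals mark the TATA-box word TATAAA and the words GTTAAT and GTTAAC in Afp and the E-box in Igf2bp3.
Afp: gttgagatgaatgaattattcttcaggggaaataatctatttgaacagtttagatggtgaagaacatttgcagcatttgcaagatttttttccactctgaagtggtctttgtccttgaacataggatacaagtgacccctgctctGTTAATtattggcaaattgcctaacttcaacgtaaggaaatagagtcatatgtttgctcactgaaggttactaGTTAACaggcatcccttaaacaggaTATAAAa
Igf2bp3: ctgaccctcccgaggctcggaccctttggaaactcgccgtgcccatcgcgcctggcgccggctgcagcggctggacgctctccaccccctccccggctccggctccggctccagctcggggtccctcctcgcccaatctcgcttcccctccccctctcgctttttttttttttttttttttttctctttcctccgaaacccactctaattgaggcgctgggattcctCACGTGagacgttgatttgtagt
Of the 6 genes, 5 had an entry among the RefSeq promoters, and Fabp5 had none. Short words were sought on both strands. TATAAA, the TATA-box word, lay 7 bases before the RefSeq start of Afp and is found in 12.4% of all 32851 promoters of this length. GTTAAT and GTTAAC lay 105 and 32 bases before the Afp start, and 6.43% and 2.56% of all promoters hold them. The GENCODE start of Afp, chr5:90490737, lies downstream of the RefSeq start, so these Afp distances hold for the RefSeq start only. CACGTG, the E-box, lay 23 bases before the Igf2bp3 start and occurs in 6.02% of all promoters. CCAAT, held by 33.8% of all promoters, was in the Afp, Igf2bp3, Golm1 and Gpc3 windows, where it is left in lower case above. TGANTCA, the AP-1 word, was in none of the 5 windows, against 6.75% of all promoters. Golm1 also held TATAAA, on the opposite strand, and Glipr2 held none of these words. Afp had 1 CpG and 36.0% GC in this window. The other promoters had 20 to 25 CpG and 60.4% to 71.6% GC, and the median promoter had 6 CpG and 52.4% GC. These matches describe the sequence and are not evidence of binding.

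Library totals ran from 9096110 to 12215784 estimated counts under HFD and from 15494731 to 20200618 under WD. Levels are CPM, the counts of a gene relative to the total of its library, scaled by edgeR's TMM method. Fold changes, their standard errors (SE) and adjusted p-values are from edgeR's quasi-likelihood test with Benjamini-Hochberg adjustment over all genes tested, and a gene was said to rise or fall when its adjusted p was under 0.05. Nus1 itself stood at 82.4 to 96.0 CPM in WT and 29.3 to 37.9 CPM in N-LKO livers under HFD. Under WD it stood at 88.1 to 98.8 CPM in WT livers, 41.6 to 51.1 CPM in N-LKO livers and 28.9 to 43.9 CPM in tumors, with no overlap between WT and knockout tissue on either diet. All 8 hepatocyte markers examined, Alb included, were listed in every group. WT liver replicate 2 under WD had the lowest TMM factor, 0.806, against 0.941 to 1.15 in the other WD libraries. Without it the counts of these marker genes called were as given below in each WD comparison.

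Under WD, tumors held more RNA of these markers than either liver group, and Gpc3 was the exception. Against WT liver, 5 of the 6 genes rose in the tumors (Afp, Igf2bp3, Fabp5, Golm1 and Glipr2), where 8.08% of all 17829 genes tested rose and 14.9% passed in either direction. Against N-LKO liver 4 of the 6 rose (Afp, Igf2bp3, Fabp5 and Glipr2), where 0.437% of all genes did. Because the 6 genes were chosen with earlier results of these data known, these counts are not independent evidence. Between N-LKO and WT liver 0 of the 6 passed, as 0% of all genes did. An unadjusted p under 0.05 was reached by 2212 genes, among them Afp, Fabp5 and Glipr2. DESeq2 called 99 genes and limma-voom 0 in that comparison, and neither called any of the 6. The median log2 fold change of the 6 genes was 2.79 in tumor against WT liver, 2.37 in tumor against N-LKO liver and 0.73 in N-LKO against WT liver, against medians of 0.04, 0.02 and 0.01 over all genes. These comparisons share libraries. In bulk tissue, fewer cells of a type and less RNA per cell cannot be told apart.

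**Figure D1:**
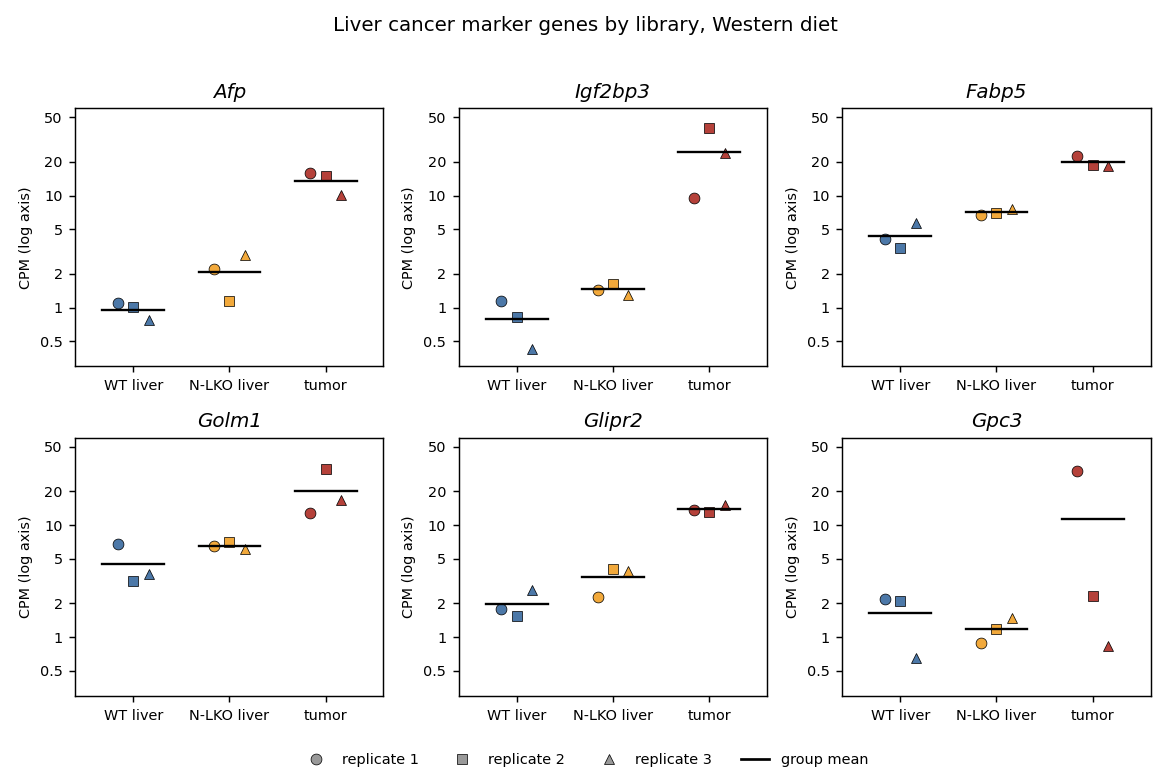
Level of each marker gene in CPM (log axis, the same in all panels) in the 9 libraries under WD. Each symbol is 1 library, shaped by replicate number, and each bar is the group mean. For all genes but Gpc3 the 3 tumors lie above all 6 livers, and Gpc3 is high in tumor replicate 1 alone.

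Afp (chr5:90490737-90508907, + strand, GRCm38) lay at 1.10, 1.02 and 0.775 CPM in the 3 WT livers and at 2.20, 1.14 and 2.92 CPM in the 3 N-LKO livers. The tumors held 15.8, 15.0 and 10.1 CPM. Every N-LKO liver was above every WT liver and every tumor above every N-LKO liver, but the lowest N-LKO liver rested on 24 reads and the highest WT liver on 16. The tumor level rose by a log2 fold change of 3.82 (SE 0.36, adjusted p = 0.00141) over WT liver, a 14.1-fold difference, and by 2.71 (SE 0.33, adjusted p = 0.0151), or 6.54-fold, over N-LKO liver. Between N-LKO and WT liver the log2 difference was 1.11 (SE 0.37, adjusted p = 0.354). The call against N-LKO liver was lost without N-LKO replicate 1 (2.75, adjusted p = 0.104) or replicate 2 (2.41, adjusted p = 0.0548).

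Igf2bp3 (chr6:49085223-49214957, − strand) showed the largest change of the 6. In WT livers it rested on 7.24 to 16.7 estimated reads, at 1.14, 0.822 and 0.431 CPM, and it lay at 1.45, 1.62 and 1.30 CPM in N-LKO livers. Tumor replicates 1, 2 and 3 held 9.48, 40.2 and 24.1 CPM, so the tumors themselves differed 4.24-fold from lowest to highest. All 3 groups were apart from each other. The tumor rise was 4.95 (SE 0.55, adjusted p = 0.00342) over WT liver, or 31-fold, and 4.08 (SE 0.50, adjusted p = 0.0151), or 16.9-fold, over N-LKO liver. N-LKO against WT liver gave 0.88 (SE 0.59, adjusted p = 0.531). Against N-LKO liver the call was lost without any 1 of the N-LKO livers (3.99 to 4.15, adjusted p up to 0.125) and with limma-voom (3.84, adjusted p = 0.0741). Exons of Igf2bp3 overlap those of Malsu1 on the opposite strand, the use of strand in counting is not given in the sources used here, and the Igf2bp3 count was fractional in all 9 libraries. Malsu1 was singled out for this overlap after its values were seen. Its level was 10.1 ± 0.866 in WT liver, 9.90 ± 0.851 in N-LKO liver and 14.6 ± 1.83 in tumor (mean CPM ± SD, n = 3 each). It rose in tumors over WT liver by 0.54 (SE 0.15, adjusted p = 0.0438). The part of shared reads in the Igf2bp3 value was not tested.

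Fabp5 (chr3:10012548-10016607, + strand) stood at 4.10, 3.44 and 5.64 CPM in WT livers, 6.69, 6.95 and 7.64 CPM in N-LKO livers and 22.5, 18.8 and 18.3 CPM in tumors. It had the narrowest spread among tumors after Glipr2, and the 3 groups did not overlap. Tumors rose over WT liver by 2.17 (SE 0.20, adjusted p = 0.00124), a 4.50-fold difference, and over N-LKO liver by 1.49 (SE 0.19, adjusted p = 0.0151), or 2.80-fold. The difference between N-LKO and WT liver was 0.68 (SE 0.20, adjusted p = 0.353). The call against N-LKO liver was lost without any 1 of the 3 N-LKO livers (1.44 to 1.54, adjusted p up to 0.125). Its counts were fractional in all 9 libraries, so part of its reads was shared with other features.

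Glipr2 (chr4:43957401-43979118, + strand) was the most even of the genes across tumors, at 13.7, 13.1 and 15.1 CPM, a coefficient of variation of 7.54%. WT livers held 1.78, 1.56 and 2.62 CPM and N-LKO livers 2.30, 4.03 and 3.93 CPM. The liver groups overlapped, because N-LKO replicate 1 was below WT replicate 3. The tumor level rose by 2.80 (SE 0.27, adjusted p = 0.00159), or 6.98-fold, over WT liver and by 2.03 (SE 0.26, adjusted p = 0.0151), or 4.09-fold, over N-LKO liver. The log2 difference between N-LKO and WT liver was 0.77 (SE 0.27, adjusted p = 0.360). Against N-LKO liver the call was lost without any 1 of the N-LKO livers (1.81 to 2.16, adjusted p up to 0.122).

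Golm1 (chr13:59634626-59675811, − strand) ran from 3.16 to 6.79 CPM in WT livers, with replicates 1, 2 and 3 at 6.79, 3.16 and 3.64 CPM. N-LKO livers held 6.48, 7.04 and 6.06 CPM, on a level with WT replicate 1, and tumors 12.9, 31.3 and 16.8 CPM. Every tumor was above every liver, and the liver groups overlapped. The tumor rise over WT liver was 2.17 (SE 0.36, adjusted p = 0.00957), or 4.50-fold. Over N-LKO liver the log2 difference of 1.65 (SE 0.35, adjusted p = 0.0743) did not pass, although DESeq2 called it (1.64, adjusted p = 0.000793) and the edgeR test did without tumor replicate 1 (1.89, adjusted p = 0.00845). N-LKO against WT liver gave 0.52 (SE 0.36, adjusted p = 0.546). Exons of Golm1 overlap those of Naa35 on the opposite strand and its counts were fractional in all 9 libraries. Naa35, also singled out after its values were seen, lay at 23.7 to 24.3 CPM in WT livers, 24.1 to 26.0 CPM in N-LKO livers and 17.6 to 20.9 CPM in tumors, lower where Golm1 was higher. Its log2 difference between tumor and WT liver was −0.31 (SE 0.12, adjusted p = 0.0946), and the part of shared reads in the Golm1 value was not tested.

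Gpc3 (chrX:52272426-52613950, − strand) behaved unlike the rest. It lay at 2.19, 2.10 and 0.655 CPM in WT livers and 0.880, 1.19 and 1.49 CPM in N-LKO livers. Tumor replicate 1 held 30.6 CPM, from 610 reads, whereas tumor replicates 2 and 3 held 2.35 and 0.833 CPM, from 53 and 16 reads. Tumor replicate 3 was thus below every N-LKO liver and 2 of the WT livers, and the 3 groups overlapped. No comparison passed: the log2 difference was 2.78 (SE 1.09, adjusted p = 0.107) for tumor against WT liver, 3.25 (SE 1.10, adjusted p = 0.169) for tumor against N-LKO liver and −0.47 (SE 1.16, adjusted p = 0.882) for N-LKO against WT liver. Without tumor replicate 1 the difference from WT liver was −0.028 (adjusted p = 0.977), and without tumor replicate 3 it passed (3.32, adjusted p = 0.0412).

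Read library by library, Afp, Igf2bp3 and Fabp5 were stepwise, with each N-LKO liver above each WT liver and each tumor above each N-LKO liver. That is 3 of 6 genes, where 2.1% of all genes tested had this order. Taken singly, each tumor was above each N-LKO liver for 5 of the 6 genes (11.5% of all genes), each tumor above each WT liver for 5 (17.7%) and each N-LKO liver above each WT liver for 3 (14.3%). Golm1 and Glipr2 had every tumor above all 6 livers while the livers overlapped, as 5.79% of all genes had. As the genes were chosen with earlier results of these data known, these orders are a description and not independent evidence. The first class rests on narrow gaps between the liver groups, 1.10 against 1.14 CPM for Afp and 1.14 against 1.30 CPM for Igf2bp3. The second class rests on single libraries: Glipr2 was stepwise without N-LKO replicate 1 or WT replicate 3, and Golm1 was stepwise without WT replicate 1. Gpc3 had neither order in the full set, and without tumor replicate 3 both remaining tumors were above both liver groups.

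Whether the second step was larger than the first was tested as the difference between both log2 steps. It was positive for all 6 genes and passed for 0 of them, as for 0% of all genes. For Igf2bp3 it was 3.20 (SE 0.95, adjusted p = 0.709), for Afp 1.60 (SE 0.60, adjusted p = 0.709), for Glipr2 1.26 (SE 0.46, adjusted p = 0.709) and for Fabp5 0.80 (SE 0.34, adjusted p = 0.709). Those 4 genes had an unadjusted p under 0.05, as did 1230 genes in all. The values for Golm1 and Gpc3 were 1.12 (SE 0.62) and 3.71 (SE 2.03), both with adjusted p = 0.712. DESeq2 called 17 genes here and limma-voom 0, with none of the 6 among them. Without tumor replicate 1 the Igf2bp3 value passed (3.58, adjusted p = 0.0419), alone among the 6 genes.

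**Figure D2:**
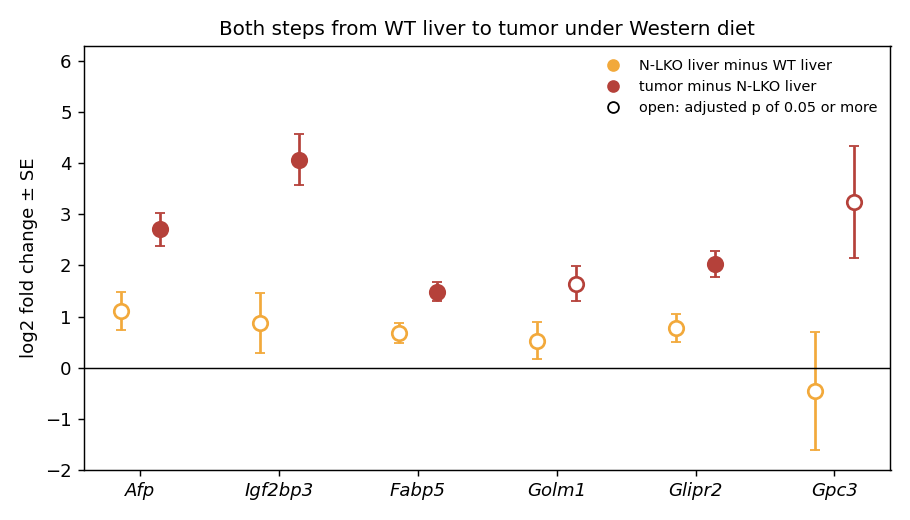
Log2 fold change with its SE for N-LKO liver minus WT liver and for tumor minus N-LKO liver under WD, per gene. Filled symbols passed the test. The second step lies above the first for each gene, and it is filled for Afp, Igf2bp3, Fabp5 and Glipr2.

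Because CPM grows with transcript length, levels between genes were compared as CPM per kilobase of annotated exon. In WT livers under WD the order of group means was Igf2bp3 at 0.0979, Afp at 0.286, Gpc3 at 0.614, Glipr2 at 0.857, Golm1 at 1.02 and Fabp5 at 1.23 CPM per kilobase. Igf2bp3 was below the other genes in every library, and all other neighbours in this order had overlapping ranges. In tumors the order was Igf2bp3 at 3.01, Afp at 4.04, Gpc3 at 4.19, Golm1 at 4.60, Fabp5 at 5.58 and Glipr2 at 6.03 CPM per kilobase, with SDs of 1.88, 0.913, 6.24, 2.20, 0.645 and 0.454 (n = 3 each). All neighbours in the tumor order had overlapping ranges, while Glipr2 stood above Afp in every tumor on this scale.

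Relatives of the marker genes passed in part. Alb, Afm and Gc, which lie beside Afp in the same gene cluster, had log2 differences of −0.03, 0.25 and −0.05 between tumor and WT liver, and none passed in any comparison. Gpc1, Gpc4 and Gpc6 had differences of −0.26, −0.41 and 0.37 and none passed either. Igf2bp2 rose with Igf2bp3 in tumors over WT liver, by 1.64 (SE 0.36, adjusted p = 0.0187). Of the fatty acid binding proteins, Fabp4, the form of adipocytes and macrophages, rose by 3.85 (SE 0.77, adjusted p = 0.0152), while the intestinal form Fabp2 fell by 0.92 (SE 0.27, adjusted p = 0.0447). Fabp4 stood at 54.8 CPM in tumor replicate 1, within the range of N-LKO livers (37.7 to 60.8 CPM), and at 451 and 519 CPM in replicates 2 and 3. Fabp1, the main liver form, had a difference of −0.77 (adjusted p = 0.0648). Glipr1 rose by 1.37 (SE 0.39, adjusted p = 0.0412) and Casc4, the relative of Golm1, had −0.30 (adjusted p = 0.686). Igf2bp2 and Fabp4 lost their calls without WT replicate 1 or 2 (adjusted p up to 0.0676 and 0.0594). Glipr1 kept its call only without WT replicate 1 or tumor replicate 1 (adjusted p up to 0.108 in the other 7 fits), and Fabp2 only without tumor replicate 1 (up to 0.146 in the other 8 fits).

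**Figure D3:**
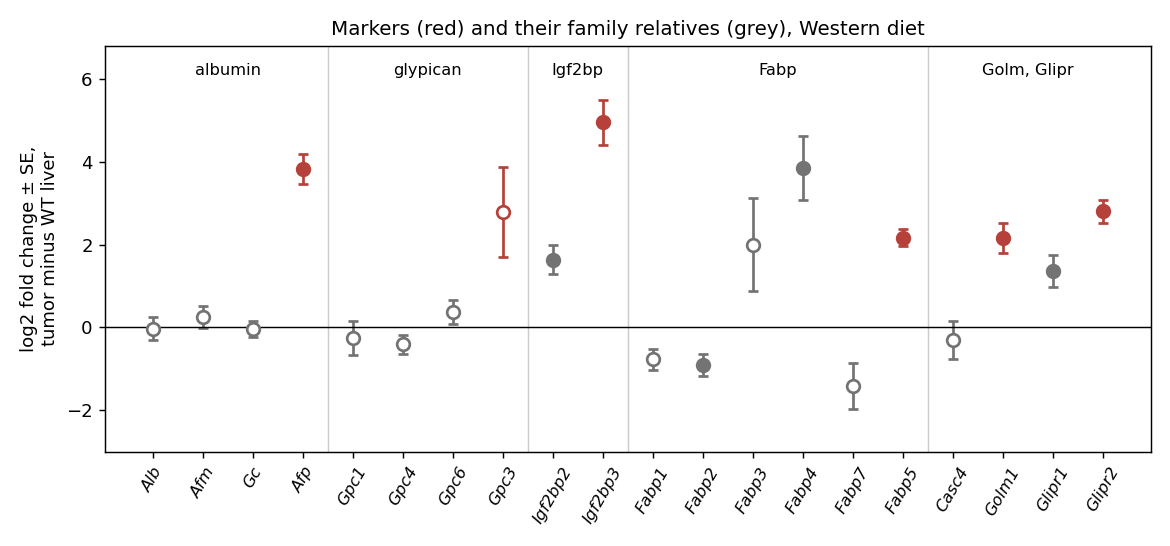
Log2 fold change with its SE between tumor and WT liver under WD for the marker genes (red) and the listed members of their families (grey). Filled symbols passed the test. Igf2bp2, Fabp4 and Glipr1 are filled and above 0, Fabp2 is filled and below 0, and the relatives of Afp and Gpc3 are open.

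Some regulators of Afp and of the fetal liver program passed. Of 13 tested, 1 rose and 2 fell in tumors over WT liver, where 8.08% of all genes rose and 14.9% passed in either direction, with a median log2 fold change of −0.28 against 0.04 over all genes. Zhx2 and Zbtb20, repressors of Afp after birth, had differences of −0.44 (adjusted p = 0.0872) and −0.24 (adjusted p = 0.340). Hnf4a, an activator of the adult hepatocyte program, fell by 0.75 (adjusted p = 0.0266). The gene that rose was Sall4, a fetal liver factor (adjusted p = 0.0336). Its values were 1.66, 0.621 and 10.5 CPM in tumor replicates 1 to 3, 0 to 0.425 CPM in N-LKO livers and 0 to 0.298 CPM in WT livers, so tumor replicate 3 carried most of it. Sall4 was not called without tumor replicate 3, N-LKO replicate 1 or 3 or any 1 WT liver (adjusted p up to 0.119). Hnf4a was not called without N-LKO replicate 3, tumor replicate 2 or WT replicate 2 (up to 0.0726).

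Other markers of liver cancer rose in the same tumors. The study had pointed out some of the list in these samples, Afp and Fabp5 among them, so their directions are not independent evidence. Of 31 tested, 16 rose and 1 fell in tumors over WT liver, where 8.08% of all genes rose and 14.9% passed in either direction. The median was 1.25 against 0.04 over all genes. Over N-LKO liver 4 rose, where 0.437% of all genes did, with a median of 0.48 against 0.02. The 4 were H19, the fetal noncoding RNA next to Igf2 (log2 fold change 10.4, SE 1.47, adjusted p = 0.0258), Tff3, a secreted trefoil peptide (7.75, SE 0.95, adjusted p = 0.0151), Sox9, a progenitor and bile duct factor (1.90, SE 0.31, adjusted p = 0.0355), and Peg10, an imprinted retrotransposon gene (1.78, SE 0.30, adjusted p = 0.0375). Each of those 4 calls over N-LKO liver was lost without any 1 N-LKO liver (adjusted p up to 0.173 for H19, 0.125 for Tff3, 0.216 for Sox9 and 0.213 for Peg10). Peg10 also lost it without any 1 WT liver or without tumor replicate 2 or 3, Sox9 without any 1 WT liver or tumor replicate 3, and H19 without WT replicate 3. Over WT liver, H19, Tff3, Sox9 and Peg10 passed in all 9 fits that left out 1 library. Sox9, Sox4, Prom1, Hk2, Peg10 and Ly6d were stepwise by library, and H19, Tff3, Lcn2, Lpl, Nqo1 and Akr1c18 were above both liver groups in tumors alone. Over all genes tested 2.1% and 5.79% had these orders. Between N-LKO and WT liver 0 of the 31 passed, as 0% of all genes did. The median was 0.77, and 27 had a positive difference, as did 9170 of all 17829 genes.

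Every tumor was above every liver for 5 of the 6 marker genes, but which tumor was highest differed between genes. Igf2, the growth factor whose mRNA Igf2bp3 binds, stood at 333 CPM in tumor replicate 2 and at 1.81 and 0.260 CPM in replicates 1 and 3. The replicate with the most Igf2 was also the one with the most Igf2bp3 (40.2 CPM), Golm1 (31.3 CPM) and H19 (11014 CPM, against 686 and 488 CPM in replicates 1 and 3). Tumor replicate 1 was highest in Gpc3, Afp and Fabp5, and tumor replicate 3 in Glipr2 and Sall4. Some of these gaps were small, as for Glipr2, at 15.1 CPM in replicate 3 against 13.7 and 13.1 CPM in replicates 1 and 2. With 1 library per tumor these are values of single libraries. Of partners and targets of the marker genes, 2 of 13 rose in tumors over WT liver and 1 fell, where 8.08% of all genes rose and 14.9% passed in either direction. The pair that rose was Igf2 (7.20, SE 2.13, adjusted p = 0.0479; 0.43, adjusted p = 0.753 without tumor replicate 2) and Wnt5a, a ligand that glypican 3 can bind (1.28, SE 0.33, adjusted p = 0.0310). Hhip, an inhibitor of hedgehog ligands, fell by 5.51 (SE 0.98, adjusted p = 0.0112). The Igf2 call was also lost without any 1 WT or N-LKO liver. Wnt5a was not called without N-LKO replicate 3, tumor replicate 2 or any 1 WT liver (adjusted p up to 0.106), and Hhip passed in all 9 such fits.

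Markers of some cell types were ordered like these genes and those of others were not. The 10 proliferation markers summed to 6.95 to 24.0 CPM in WT livers, 28.4 to 47.0 CPM in N-LKO livers and 49.9 to 108 CPM in tumors, in the same order as Afp, Igf2bp3 and Fabp5. Of them 6 of 10 rose in tumors over WT liver, where 8.08% of all genes did, and 0 over N-LKO liver, where 0.437% did. The 8 cholangiocyte markers summed to 29 to 83.7, 130 to 165 and 218 to 544 CPM in the same order, with Spp1 and Sox9 the members that passed in tumors over WT liver. Krt7, Krt19, Epcam and Cftr had negative log2 differences between tumor and N-LKO liver and none passed. The 10 macrophage markers summed to 613 to 985, 673 to 780 and 420 to 794 CPM, and the 9 markers of stellate cells and fibroblasts to 452 to 948, 916 to 1106 and 623 to 1103 CPM. The 7 T and B cell markers summed to 3.25 to 4.71, 4.11 to 6.85 and 7.93 to 12.9 CPM, and the 7 endothelial markers to 295 to 324, 264 to 319 and 310 to 351 CPM. The 8 hepatocyte markers summed to 47650 to 61043 CPM in WT, 34670 to 43544 CPM in N-LKO livers, with no overlap, and 36499 to 62204 CPM in tumors. Of these 8, 3 fell in tumors over WT liver, where 1213 of all 17829 genes did, and the median of the list was −0.68. The 3 were Pck1 (log2 fold change −1.87, adjusted p = 0.0269), Tat (−1.74, adjusted p = 0.0378) and Ttr (−0.79, adjusted p = 0.0246). Pck1 was not called without tumor or WT replicate 2 (adjusted p up to 0.0829), Ttr without any 1 WT liver (up to 0.0686) and Tat in 7 of 9 fits, all but those without tumor replicate 1 or WT replicate 3 (up to 0.138). Of the 5 adipocyte markers 3 were listed under WD, and Adipoq and Plin1 were at or under 3 reads in every WT and N-LKO liver. The other, Cfd, the complement factor adipsin, stood at 3.70 to 24.5 CPM in WT livers, 2.80 to 4.62 CPM in N-LKO livers and 0.0520 to 1.36 CPM in tumors, with no more than 3 reads in 2 of the tumors. In tumors over WT liver it fell by 4.96 (adjusted p = 0.0124) and passed in all 9 fits that left out 1 library, while Fabp4, the adipocyte form of the family, rose. The part of these cells in the marker genes was not tested.

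For each gene the 2 genes of nearest shape over the 9 WD libraries were found among 11746 genes with a mean of at least 2 CPM, by the root mean square (RMS) difference of centred log2 CPM. Nearest to Afp were Coro6 (RMS 0.44) and Zfp37 (0.48), and nearest to Igf2bp3 were Ptges (0.44) and Rasal1 (0.53). Fabp5 was matched by Evc2 (0.24) and Ace (0.26), Golm1 by Zfp14 (0.24) and Casp1 (0.27), and Glipr2 by Dzip1l (0.27) and Dnm3 (0.28). Gpc3 had no close match, with Bicd1 (0.85) and Orm2 (0.87) nearest. Among the marker genes themselves Glipr2 and Fabp5 were the closest pair (0.35), Fabp5 being the third of all genes in likeness to Glipr2. All of these values use the same 9 libraries and describe shape only.

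Under HFD these genes had few reads, in libraries with lower totals than those under WD. No difference between N-LKO and WT liver passed. Only 2 of the 6, Afp and Fabp5, had enough reads to be tested, and 0 of them passed, where 2.56% of all 13460 genes tested rose and 4.84% passed in either direction. Neither had an unadjusted p under 0.05 with edgeR, DESeq2 or limma-voom. Afp stood at 1.25, 1.15, 0.999 and 0.712 CPM in WT livers and at 1.32, 1.32, 1.30 and 1.44 CPM in N-LKO livers. Every N-LKO liver was above every WT liver, but the values rest on 7 to 18 reads each and the log2 difference was 0.39 (SE 0.28, adjusted p = 0.433). Fabp5 in WT livers ran from 1.63 to 3.81 CPM, and the N-LKO livers spanned 1.63 to 5.35 CPM, so the groups overlapped, with a log2 difference of 0.08 (SE 0.38, adjusted p = 0.924). Its sign turned without N-LKO replicate 2 (−0.36) or WT replicate 4 (−0.11).

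The other 3 listed genes fell below the filter on low counts. Gpc3 ran from 0.191 to 1.14 CPM in WT and 0.559 to 0.977 CPM in N-LKO livers. Golm1 ran from 0.535 to 1.81 and 0.467 to 1.42 CPM, and Glipr2 from 0.305 to 0.936 and 0.399 to 1.41 CPM, in the same order. The groups overlapped for each. Without the filter their log2 differences were 0.25, −0.14 and 0.37, with adjusted p of 0.850, 0.915 and 0.744 from edgeR. Each of these values rests on 2 to 17.8 estimated reads, and no difference was detectable at this depth.

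**Figure D4:**
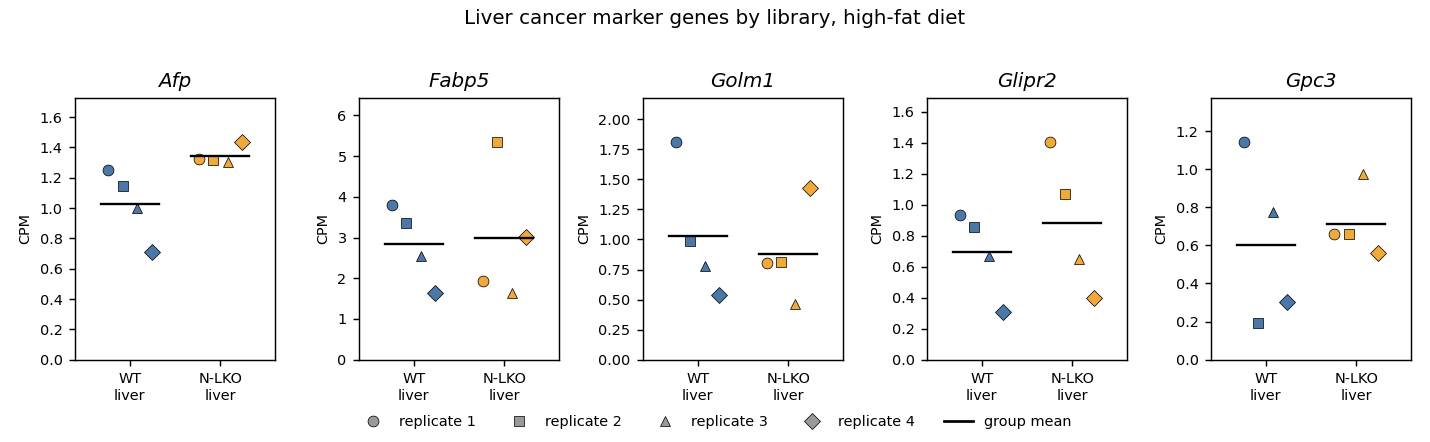
Level of the 5 marker genes listed under HFD in CPM (linear axes from 0, scaled per panel) in 4 WT and 4 N-LKO livers. Symbols are libraries, shaped by replicate number, and bars are group means. Afp is the gene whose groups do not overlap, at about 1 CPM, and the other genes overlap.

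Other liver cancer markers did move under HFD. Of 23 tested, 10 rose in N-LKO liver and 0 fell, with a median log2 fold change of 0.64 against −0.01 over all genes, where 2.56% of all genes rose. They were led by Tspan8, a membrane tetraspanin (2.83, SE 0.60, adjusted p = 0.0251), Ly6d, a surface antigen (2.24, SE 0.24, adjusted p = 0.00216), Spp1, the secreted osteopontin (1.55, SE 0.27, adjusted p = 0.0139), Sox4, a progenitor transcription factor (1.54, SE 0.21, adjusted p = 0.00749), and Cd24a, a surface sialoglycoprotein (1.37, SE 0.29, adjusted p = 0.0242). Among the regulators, Foxa1 fell by 0.65 (adjusted p = 0.0269). Ly6d, Spp1 and Sox4 passed in all 8 fits that left out 1 library. Tspan8 and Cd24a were not called without N-LKO replicate 1 or 3 or WT replicate 2 or 4 (adjusted p up to 0.0832 and 0.0697), and Foxa1 without N-LKO replicate 3 or 4 or WT replicate 2, 3 or 4 (up to 0.0745). Cholangiocyte markers summed to 33.1 to 49.4 CPM in WT and 69.7 to 117 CPM in N-LKO livers, and their part in these values was not tested.

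Whether the knockout acted differently under the 2 diets was tested by the interaction of genotype and diet in the 14 livers. Of 5 marker genes tested 0 passed, where 1.62% of all 15850 genes passed in either direction, and 0 had an unadjusted p under 0.05. DESeq2 and limma-voom also called none of the 5. The genotype difference under WD minus that under HFD was 0.74 (SE 0.47, adjusted p = 0.403) for Afp, 0.61 (SE 0.48, adjusted p = 0.508) for Fabp5, 0.69 (SE 0.55, adjusted p = 0.513) for Golm1, 0.43 (SE 0.59, adjusted p = 0.723) for Glipr2 and −0.68 (SE 0.72, adjusted p = 0.637) for Gpc3. The diets were deposited as separate tables, so levels were not compared across them. Each diet has its own table and range of library totals, so the interaction cannot tell diet apart from these.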

How the data were processed

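RNA-seq was performed on 17 mouse libraries, grouped and numbered from their titles. The titles call replicates biological but name no animals, so p-values measure the spread between these samples. The study's methods describe rRNA removal, single-end reads and TopHat2, while the submitters' processing notes name STAR, Partek and the mm9 build. Gene coordinates in the files follow GRCm38, and positions given here are from its GENCODE M21 annotation. The authors deposited expected counts per gene, in which a read may be divided between features (69.3% and 66.2% of values were whole under HFD and WD). All 17 columns were assigned, and 0 were left over.

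Counts were rounded and tested with edgeR 4.0.16 (quasi-likelihood F test, TMM, filterByExpr, Benjamini-Hochberg adjusted p under 0.05 over all genes, two-sided) in R 4.3.3. HFD livers were fitted alone and all 9 WD libraries together. The SE is the log2 fold change divided by the square root of F. Scripts were tested on simulated data. Same-numbered libraries had correlations of −0.08 to 0.11 (HFD) and −0.12 to 0.10 (WD) in their deviations from group means. Values this small neither show nor exclude a shared animal. The column names number the libraries differently from the titles, and no block by those numbers was fitted. No 2 libraries within a group agreed within sampling noise (chi-square per degree of freedom 7.99 or more). The marker genes and all gene lists were chosen with earlier results of these data known. Named genes are the 6 markers, Nus1, members of the small families, list genes past the threshold and the nearest genes by shape. Some list genes are counted with their list, but their own values are not reported here. Alternatives were DESeq2 1.42.0, limma-voom (limma 3.58.1), other scalings and filters, unrounded counts, a replicate block, a fit of the 2 groups alone and leaving out each library.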

Additional observations from a re-analysis of the deposited data

Results flagged for a closer look

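Afp in N-LKO liver replicate 4 under HFD, at 1.44 CPM, lay apart from the other 3 livers of its group (1.30 to 1.32 CPM) by Dixon's criterion at the 95% level. Of 12 groups of 4 libraries examined, counting Nus1, this was the 1 that met it, and chance alone meets it in about 1 of 20 groups. The value rests on 18 reads against 12 to 16 in the other libraries of the group.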

How the results depend on the processing

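Of the 4 marker genes called in tumor over N-LKO liver, 0 were called without N-LKO replicate 1 or 2 and 1 (Afp) without replicate 3, and the range over left-out libraries was 0 to 5. Called genes in all then numbered 3 to 6 against 89, so the loss came with a loss of calls at large; they were 2193 without tumor replicate 1, 1021 with DESeq2, 58 with a mean of at least 1 CPM, 29 with only both groups fitted and 18 with limma-voom. For the second step minus the first, 0 to 1 genes passed over left-out libraries, and for tumors above both overlapping liver groups 1 to 3 against 2. Reversed directions were Fabp5 under HFD (−0.36 without N-LKO replicate 2, −0.11 without WT replicate 4, range −0.36 to 0.28) and Gpc3 in tumor against WT liver (−0.028 without tumor replicate 1, range −0.028 to 3.32); the cause was not tested beyond the values of those libraries. The counts of 0 (HFD and WD N-LKO against WT liver, interaction) kept their value under every alternative run, and tumor over WT liver gave 5 in all but 1, which gave 6 (without tumor replicate 3). The replicate number of the titles, which need not pair animals, was also used as a block. With it 4 marker genes passed in tumor over N-LKO liver and 5 over WT liver. In all 36 and 1860 genes then passed, against 89 and 2653 without it, and the interaction had 0 genes in all against 257. All genes called under other settings ranged from 179 to 999 under HFD (652), 0 to 99 for WD N-LKO against WT liver (0), 569 to 3819 for tumor against WT liver (2653), 0 to 105 for the second step minus the first (0) and 0 to 923 for the interaction (257). With 3 libraries a group and 7.24 to 55 reads per liver for Afp, Igf2bp3 and Gpc3, small differences between livers were not detectable at this depth.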
